A study of Rattus norvegicus with 16 samples.

Results

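Secreted Wnt modulators are proteins released from cells that bind Wnt ligands or their receptors outside the cell. The 8 genes described here, of 14217 genes measured by probesets with a single gene, are Sfrp1, Sfrp2, Sfrp4, Frzb, Wif1, Dkk2, Dkk3 and Cthrc1. They were chosen by name, as secreted modulators of Wnt signaling plus Cthrc1, with earlier results of these same arrays known, so their differences between groups are given as a description, with no test. All 8 were measured, by 16 of the 20826 single-gene probesets, and every probeset is reported. Wif1, Dkk2 and Cthrc1 had 1 probeset each, Sfrp2, Sfrp4 and Frzb had 2 each, Sfrp1 had 3 and Dkk3 had 4.

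The tissue was dorsal hairy skin of adult female Sprague-Dawley rats, from the T9/10 dermatome. In 5 rats it was taken 7 days, and in another 5 rats 14 days, after the left T9 and T10 cutaneous nerves had been cut and ligated, while the neighbouring T11 nerves were left intact. The naïve group was 6 rats with no surgery, so incision and denervation cannot be told apart in either comparison. By the brightness of Acta1 given below, the samples also held skeletal muscle, presumably the cutaneous trunci under the dermis. The nerve supply of this muscle was not examined here. RNA of each animal was hybridised to 1 Affymetrix rat expression array, giving 1 log2 brightness per probeset after robust multi-array averaging (RMA).

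Wnt proteins signal through frizzled receptors. With the co-receptors Lrp5 and Lrp6 they stabilise beta-catenin, which enters the nucleus and acts with Tcf and Lef factors, and through other partners such as Ror2 and the planar polarity proteins they act on cell shape and movement. The secreted frizzled-related proteins (Sfrp1, Sfrp2, Sfrp4 and Frzb) carry a cysteine-rich domain like that of the frizzled receptors and bind Wnts, Wif1 binds Wnts through a domain of its own, Dkk2 binds Lrp5 and Lrp6, and Dkk3 is a divergent member of the Dickkopf family. Cthrc1 is a secreted collagen triple helix repeat protein that, in mouse, favours the pairing of Wnts with frizzled and Ror2. In skin, Wnt signaling is known for its place in the hair cycle and in dermal repair.

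Sfrp2 had the largest difference from naïve skin of the 8 genes at both times, and its promoter is shown to give the sequence at the start of that gene. RefSeq (GRCr8) places this window of 300 bases at chr2:171387286-171387585 on the plus strand, with 250 bases before the start in lower case and 50 bases from the start on in capitals.
Sfrp2 promoter: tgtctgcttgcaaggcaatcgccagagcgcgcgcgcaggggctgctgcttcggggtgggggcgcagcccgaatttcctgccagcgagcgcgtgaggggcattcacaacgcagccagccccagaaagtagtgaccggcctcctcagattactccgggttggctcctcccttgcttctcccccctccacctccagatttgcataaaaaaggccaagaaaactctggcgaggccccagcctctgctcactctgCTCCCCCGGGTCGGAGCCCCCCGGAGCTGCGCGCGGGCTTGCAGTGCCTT
G and C made up 65% of it, above the median of 51.7% over 33469 promoters. Neither form of the Tcf/Lef core, CTTTGAT or CTTTGAA, nor the TATA letters TATAAA were found in it on either strand, while 3.63%, 5.4% and 14.2% of all promoters of this length hold them. A match would be a description and its absence says only that these letters are not in this window.

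Markers of skin and muscle were present in every group. Col1a1, a fibrillar collagen of the dermis, averaged 13.82 at 7 days, 13.77 at 14 days and 13.11 in naïve skin, and Acta1, the actin of skeletal muscle, averaged 13.71, 13.56 and 13.84 in the same order. The naïve arrays were less alike than the denervated ones, with a lowest correlation over probesets of 0.918 between naïve arrays, against 0.974 at 7 days and 0.993 at 14 days. A hair follicle score, which averages 8 measured hair genes after each was centred on its mean of the 16 arrays, was 1.62 and 1.78 in naïve replicates 1 and 2 and between -3.48 and -3.21 in the other naïve arrays. Beta-actin 3 prime minus middle signal, a sign of RNA integrity, was 0.202 to 0.29 at 7 days, 0.0452 to 0.276 at 14 days and 0.176 to 1.2 in naïve skin, where replicates 4 and 5 had the highest values, 0.962 and 1.2. The 3 prime minus 5 prime signal did not set these replicates apart as high, at 0.499 and 0.142. It was 0.583 to 0.692 at 7 days and 0.465 to 0.736 at 14 days, so the RNA integrity of naïve replicates 4 and 5 stays uncertain. Differences of the 8 genes from naïve skin, and the counts of calls, are therefore also given without replicates 1 and 2 and without replicates 4 and 5.

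Sfrp2 and Cthrc1 were far above naïve skin at 7 days and nearer to it at 14 days, and Sfrp4 was high at both times. Sfrp1 was moderately higher than in most naïve arrays, Dkk3 was lower at 14 days on its bright probeset, and Frzb, Wif1 and Dkk2 stayed near the bottom of the array range. Of the 16 probesets, 4 had every 7-day array above every naïve array, where 2.91% of all probesets did so, and 3 had every 14-day array above every naïve array, where 3.61% did. At neither time was a probeset below every naïve array on every denervated array, where 1.23% of all probesets were at 7 days and 7.09% at 14 days.

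**Figure D1:**
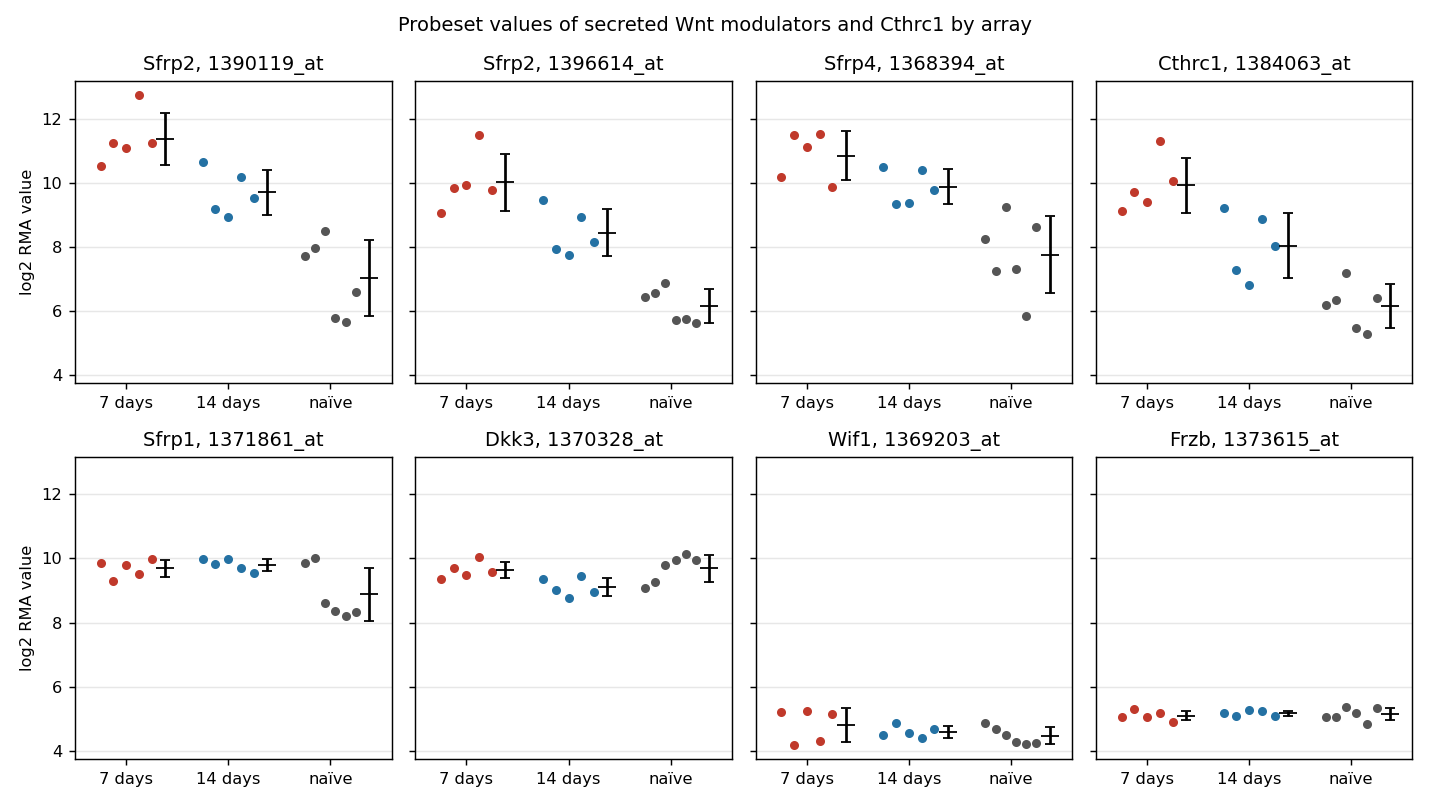
Log2 RMA values (vertical axis) of 8 probesets of the secreted Wnt modulators and Cthrc1 on each array at 7 days, at 14 days and in naïve skin, with points in order of replicate number and bars at the mean ± SD (n = 5, 5 and 6). Both Sfrp2 probesets and Sfrp4 1368394_at lie above every naïve array at both times, and Cthrc1 does so at 7 days.

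Sfrp2 encodes a secreted frizzled-related protein that is made by fibroblasts. Its probeset 1390119_at read 10.52, 11.23, 11.09, 12.74 and 11.23 in 7-day replicates 1 to 5, and 10.66, 9.19, 8.94, 10.18 and 9.52 in 14-day replicates 1 to 5. Naïve skin had a lowest value of 5.66, a median of 7.16 and a highest value of 8.49. Every denervated array lay above the highest naïve array at both times. The mean was 11.36 ± 0.824 at 7 days (SD, n = 5) and 9.70 ± 0.71 at 14 days (n = 5), against 7.03 ± 1.19 in naïve skin (n = 6). The log2 difference was 4.33 (standard error 0.533), a 20.1-fold difference, at 7 days, and 2.67 (0.533), 6.36-fold, at 14 days. Since whole tissue was measured, a change in the number of cells of a type and a change in RNA per cell cannot be told apart here or in any later result.

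The other Sfrp2 probeset, 1396614_at, gave the same order of groups. It read 9.06, 9.82, 9.94, 11.48 and 9.77 at 7 days and 9.46, 7.94, 7.74, 8.92 and 8.16 at 14 days, with naïve values between 5.64 and 6.89 around a median of 6.10. Again no denervated array overlapped with a naïve one. Its log2 difference from naïve skin was 3.85 (standard error 0.401; 14.4-fold) at 7 days and 2.28 (0.401; 4.85-fold) at 14 days. Between the 2 times the groups overlapped on both probesets, since 14-day replicate 1 was above 7-day replicate 1, and the difference of 14 minus 7 days was -1.66 (0.557) on 1390119_at and -1.57 (0.419) on 1396614_at. Leaving out both naïve replicates 4 and 5, the lowest naïve arrays on 1390119_at, gave differences there of 3.67 at 7 days and 2.01 at 14 days, and on 1396614_at of 3.63 and 2.06. Leaving out naïve replicates 1 and 2 gave 4.73 and 3.07 on 1390119_at and 4.01 and 2.45 on 1396614_at.

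Sfrp4 is a frizzled-related protein with the same kind of Wnt-binding domain as Sfrp2. Its probeset 1368394_at read 10.19, 11.50, 11.12, 11.51 and 9.86 at 7 days, and 10.48, 9.35, 9.37, 10.40 and 9.77 at 14 days. The naïve arrays spanned 5.86 to 9.23 with a median of 7.79, the widest naïve range among the 16 probesets. All 10 denervated arrays were above all 6 naïve arrays, by as little as 0.12 between 14-day replicate 2 and naïve replicate 3. The log2 difference was 3.08 (standard error 0.508; 8.45-fold) at 7 days and 2.12 (0.508; 4.34-fold) at 14 days, and 14 minus 7 days gave -0.96 (0.531). Without naïve replicates 4 and 5 these differences from naïve skin were 2.49 and 1.53, and without replicates 1 and 2 they were 3.08 and 2.12, as with all arrays.

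Sfrp4 1388021_at was dim, reading between 4.37 and 4.88 on all arrays, and its groups overlapped. It differed from naïve skin by 0.05 (standard error 0.0716) at 7 days and 0.20 (0.0716) at 14 days. Without naïve replicates 1 and 2 the differences were -0.01 and 0.14, and without replicates 4 and 5 they were 0.04 and 0.20. Taking the median of both probesets as the value of the gene, as was done for the counts of genes below, gave Sfrp4 log2 differences of 1.56 at 7 days and 1.16 at 14 days, about midway between its probesets.

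Sfrp1 followed another pattern over the arrays. Its probeset 1371861_at read 9.85, 9.31, 9.78, 9.52 and 9.97 at 7 days and 9.97, 9.81, 9.97, 9.71 and 9.55 at 14 days. In naïve skin it was 9.87 and 10.01 in replicates 1 and 2, and between 8.19 and 8.60 in replicates 3 to 6, around a median of 8.48. The denervated arrays thus overlapped with naïve replicates 1 and 2 and lay above the other naïve arrays. The log2 difference was 0.79 (standard error 0.304; 1.73-fold) at 7 days and 0.91 (0.304; 1.88-fold) at 14 days. It was 1.32 and 1.43 without naïve replicates 1 and 2, and 0.48 and 0.60 without naïve replicates 4 and 5.

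The other Sfrp1 probesets had the same split of the naïve arrays. On 1382878_at the 7-day values ran between 7.88 and 8.57 and the 14-day values between 8.42 and 8.71, while naïve replicates 1 and 2 read 8.44 and 8.58 and the other naïve arrays 7.21 to 7.42. On 1383266_at they ran between 7.37 and 8.0 and between 7.26 and 7.90, while naïve replicates 1 and 2 read 7.73 and 7.76 and the other naïve arrays 5.53 to 6.42. Differences from naïve skin were 0.45 (standard error 0.246) and 0.90 (0.246) on 1382878_at and 1.17 (0.368) and 1.04 (0.368) on 1383266_at, at 7 and 14 days. Without naïve replicates 1 and 2 they were 0.86 and 1.31, and 1.79 and 1.66, and without replicates 4 and 5 they were 0.28 and 0.73, and 0.73 and 0.60.

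Sfrp1 moved with the hair follicle score. At 14 days the score was 1.51 to 1.63 on every array. At 7 days it was 1.43, 0.67 and 0.90 in replicates 1, 3 and 5, and -0.15 and -0.61 in replicates 2 and 4, which were also the lowest 7-day arrays for Sfrp1 1371861_at. The part of hair follicle content in the Sfrp1 differences was not tested.

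Frzb, a frizzled-related protein first known from cartilage, was dim on both probesets, whose means lay in the lowest 25% of all probesets. On 1373615_at it read between 4.90 and 5.30 at 7 days, 5.09 and 5.27 at 14 days, and 4.85 and 5.36 in naïve skin. On 1375961_at the ranges were 4.82 to 5.37, 4.74 to 5.18 and 4.88 to 5.88. All groups overlapped, and the differences from naïve skin were -0.05 and 0.03 on 1373615_at and -0.23 and -0.20 on 1375961_at, with a standard error of 0.152 on 1375961_at at each time. Without naïve replicates 1 and 2 they were -0.09 and -0.01, and -0.35 and -0.33, and without replicates 4 and 5 they were -0.11 and -0.04, and -0.25 and -0.22.

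Wif1, Wnt inhibitory factor 1, was dim as well. It read 5.21, 4.18, 5.23, 4.30 and 5.16 at 7 days, 4.50, 4.88, 4.56, 4.39 and 4.68 at 14 days, and between 4.23 and 4.87 in naïve skin. The 7-day arrays fell apart, with replicates 1, 3 and 5 above every naïve array and replicates 2 and 4 within or below the naïve range. The mean difference was 0.35 (standard error 0.198) at 7 days and 0.13 (0.198) at 14 days. It was 0.50 and 0.29 without naïve replicates 1 and 2, and 0.24 and 0.02 without replicates 4 and 5. Replicates 1, 3 and 5 were the 7-day arrays with the higher hair follicle scores, whose part in the spread of Wif1 was not tested.

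Dkk2 read between 4.16 and 4.75 at 7 days, 4.19 and 4.32 at 14 days, and 4.09 and 4.64 in naïve skin. Its differences of -0.03 (standard error 0.113) at 7 days and -0.14 at 14 days were smaller than the 0.55 spanned by the naïve arrays, and at this brightness a difference may go unseen. They were -0.13 and -0.24 without naïve replicates 1 and 2, and -0.03 and -0.14 without replicates 4 and 5.

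Dkk3 was bright on 1370328_at. It read 9.37, 9.70, 9.48, 10.05 and 9.58 at 7 days and 9.35, 9.0, 8.77, 9.44 and 8.95 at 14 days, with naïve values between 9.09 and 10.15 around a median of 9.86. The groups overlapped at both times, and the log2 difference was -0.06 (standard error 0.19) at 7 days and -0.60 (0.19; 0.661-fold) at 14 days. In naïve skin it ran opposite to Sfrp1, with its lowest values, 9.09 and 9.28, in replicates 1 and 2. Without these replicates the differences were -0.32 and -0.85, and without naïve replicates 4 and 5 they were 0.11 and -0.43. The remaining 3 Dkk3 probesets lay between 3.66 and 5.07 on all arrays, so the median of the 4 probesets gave the gene a difference of only -0.12 at 7 days and -0.02 at 14 days. Of the dim probesets 1377468_at differed by -0.02 and -0.01 at these times. The differences were -0.16 (standard error 0.0615) and -0.03 on 1394655_at, and -0.09 and -0.00 on 1397754_at. With either pair of naïve arrays left out, those of the 3 dim probesets lay between -0.14 and 0.01.

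Cthrc1, named for its collagen triple helix repeat, is known in rat from injured arteries. Its probeset 1384063_at read 9.13, 9.70, 9.40, 11.31 and 10.05 at 7 days and 9.20, 7.29, 6.82, 8.86 and 8.04 at 14 days. Naïve skin had a lowest value of 5.30, a median of 6.26 and a highest value of 7.18. Every 7-day array lay above every naïve array, while 14-day replicate 3 lay below naïve replicate 3. The mean was 9.92 ± 0.852 at 7 days and 8.04 ± 1.01 at 14 days, against 6.15 ± 0.684 in naïve skin. The log2 difference was 3.77 (standard error 0.473; 13.6-fold) at 7 days, 1.89 (0.473; 3.71-fold) at 14 days, and -1.88 (0.494) for 14 minus 7 days. Without naïve replicates 4 and 5 the differences from naïve skin were 3.39 and 1.51, and without replicates 1 and 2 they were 3.82 and 1.95.

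**Figure D2:**
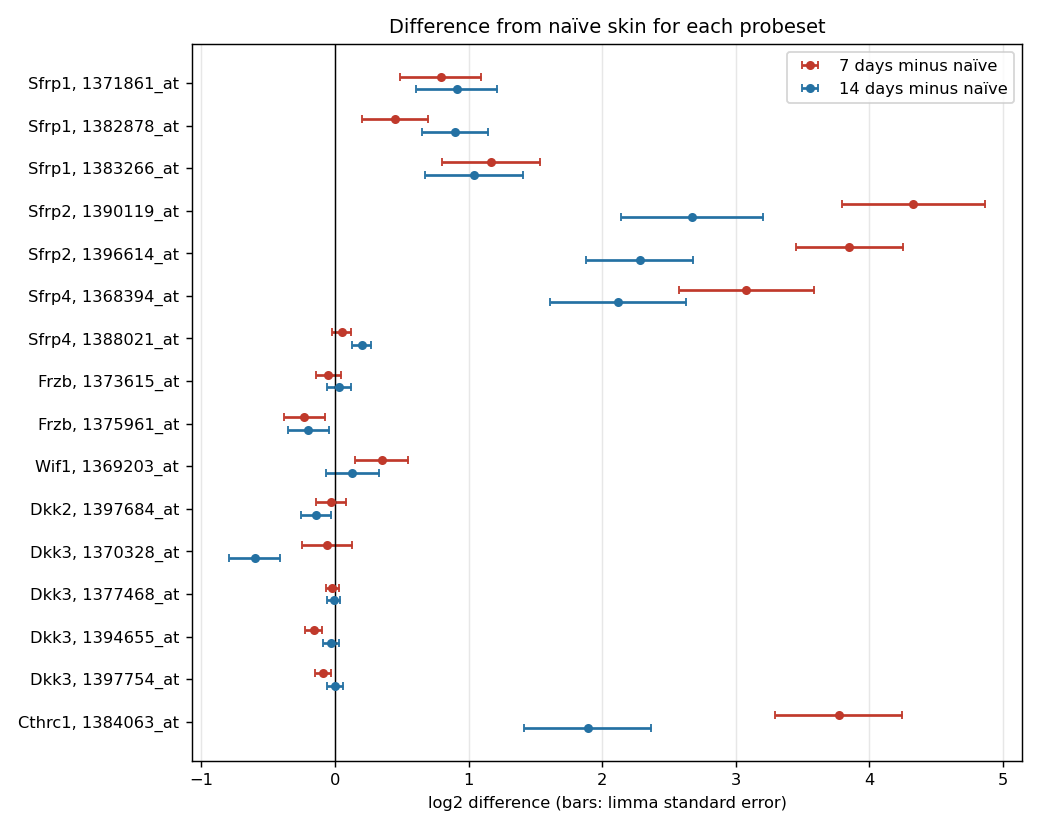
Log2 difference from naïve skin (horizontal axis) of each of the 16 probesets at 7 days and 14 days, with bars of 1 limma standard error. The probesets of Sfrp2, Sfrp4 1368394_at and Cthrc1 lie between 3.08 and 4.33 at 7 days and between 1.89 and 2.67 at 14 days.

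As counts of genes over the whole table, limma with Benjamini-Hochberg adjustment put 3 of the 8 genes (Sfrp2, Sfrp4 and Cthrc1) past an adjusted p of 0.05 as higher and 0 as lower at 7 days, where 7.85% of all genes were called higher and 2.66% lower. At 14 days 4 were called higher, with Sfrp1 added, and 0 lower, where 8.95% and 14.6% of all genes were. For 14 against 7 days 0 were higher and 2 lower (Sfrp2 and Cthrc1), where 8.86% and 10.1% were. These comparisons were in view when the genes were chosen and share arrays with each other, so nothing is read from the counts. The 14-day count was 2 (Sfrp2 and Sfrp4) without naïve replicates 4 and 5. The count lower at 14 than at 7 days was 0 without 7-day replicate 4 or 14-day replicate 3, and 1 without 7-day replicate 2 or 3 or 14-day replicate 2 or 5. Over single probesets, 4 were higher and 0 lower at 7 days, against 6.66% and 2.06% of all probesets, and 6 higher and 1 lower at 14 days, against 9.11% and 15%.

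Sfrp2, Sfrp4 and Cthrc1 shared some of their highest and lowest animals within groups. Replicate 4 was the highest 7-day array for all of them, and 14-day replicates 1 and 4 were the highest at that time for all of them. From low to high, 14-day replicates 3, 2, 5, 4 and 1 stood in that order for Sfrp2 1390119_at and for Cthrc1. In naïve skin replicate 3 was the highest and replicate 5 the lowest for Sfrp2 1390119_at, Sfrp4 1368394_at and Cthrc1. Other ranks differed, since 7-day replicate 5 was the lowest for Sfrp4 1368394_at, at 9.86, but above replicates 1, 2 and 3 for Cthrc1, at 10.05, and naïve replicate 6 was high for Sfrp4 1368394_at, at 8.62, but not for Sfrp2 1390119_at, at 6.60. As a description over 16 arrays that share group means, Pearson's r between Sfrp2 1390119_at and Cthrc1 was 0.97, and 0.87 over deviations from the group means. For Sfrp4 1368394_at the values were 0.92 and 0.69 with Sfrp2 1390119_at, and 0.90 and 0.68 with Cthrc1. For Sfrp1 1371861_at the values were 0.66 and 0.42 with Sfrp2 1390119_at, 0.50 and -0.02 with Sfrp4 1368394_at, and 0.50 and 0.06 with Cthrc1. On Sfrp1 1383266_at they were 0.75 and 0.53, 0.63 and 0.18, and 0.61 and 0.17. On Sfrp1 1382878_at they were lower, at 0.46 and 0.18, 0.36 and -0.14, and 0.28 and -0.18. Sfrp1 1371861_at ran opposite to Dkk3 1370328_at, with -0.74 and -0.78.

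The genes whose values over the 16 arrays were most like each gene were found by Pearson's r on gene values among all genes. For Sfrp2 they were Cthrc1 (r = 0.977), Cd276, an immune checkpoint protein of the B7 family (0.973), and Timp1, an inhibitor of matrix metalloproteinases (0.973). Those nearest Cthrc1 were Lrrc17 (0.979), Sfrp2 (0.977) and Srpx2 (0.968), and those nearest Sfrp4 were Fbn1, the microfibril protein fibrillin (0.966), Ehd4 (0.954) and Kdelr3 (0.952). The deviations from group means of these pairs correlated at 0.888 to 0.907. For Sfrp1 the nearest genes were Pinlyp (0.981), Padi3, which modifies proteins of the hair shaft and its sheath (0.978), and Slc31a1, a copper importer (0.978). Wif1 was nearest to Spdl1 (0.910), E2f8 (0.899) and Srsf1 (0.899), of which the spindle protein Spdl1 and the E2F factor E2f8 serve cell division. For the dim Frzb, Dkk2 and Dkk3 gene values the highest r was 0.886, 0.893 and 0.900, with Ankef1, P2ry10 and Asic4.

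**Figure D3:**
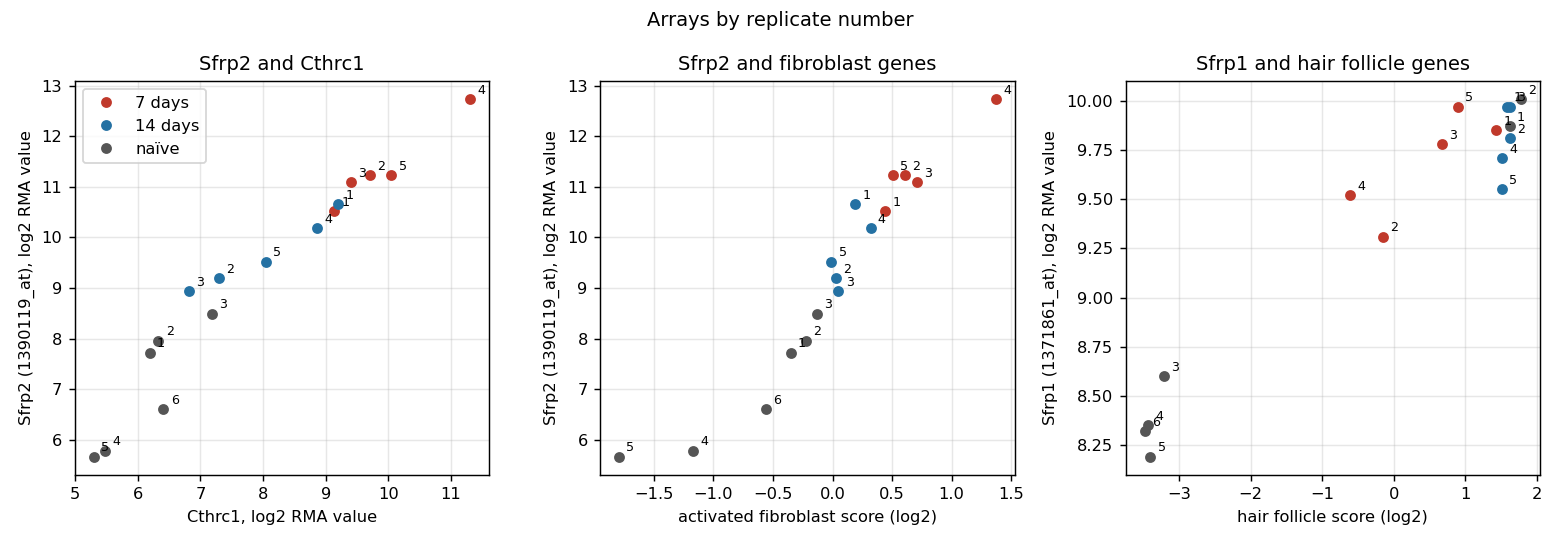
Log2 RMA values of Sfrp2 1390119_at on each array against those of Cthrc1 (left) and against the activated fibroblast score (middle), and of Sfrp1 1371861_at against the hair follicle score (right), with replicate numbers beside the points for 7 days, 14 days and naïve skin. Sfrp2 and Cthrc1 share their highest array, 7-day replicate 4, and Sfrp1 splits naïve replicates 1 and 2 from the other naïve arrays.

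Fibroblast, macrophage, endothelium and hair follicle scores had higher medians at 7 days than in naïve skin, like Sfrp2, Sfrp4 and Cthrc1. The sarcomere, adipocyte, Schwann cell and epidermal keratinocyte scores did not. The activated fibroblast score, over Fn1, Tnc, Postn, Lox, Acta2, Tagln, Fap and Sparc, was 0.44, 0.61, 0.71, 1.37 and 0.51 in 7-day replicates 1 to 5 and 0.19, 0.03, 0.05, 0.32 and -0.01 at 14 days, against -1.79 to -0.13 in naïve skin. Its highest array was 7-day replicate 4, its lowest naïve replicate 5 and its highest naïve array replicate 3, as for Sfrp2 1390119_at. The dermal fibroblast score had the same arrays in these places. Among naïve arrays, replicate 5 was also lowest and replicate 3 highest for the macrophage, adipocyte, Schwann cell and epidermal keratinocyte scores. The endothelium, sarcomere and hair follicle scores differed in this. Of the 8 activated fibroblast genes 5 were called higher at 7 days and 3 at 14 days, where 7.85% and 8.95% of all genes were. The dermal fibroblast score ranged over 0.11 to 0.84 at 7 days, -0.01 to 0.28 at 14 days and -2.09 to 0.31 in naïve skin, with 3 of 8 genes called higher at 7 days and 0 at 14 days. In the activated fibroblast list, Acta2 and Tagln, contractile proteins of myofibroblasts and of smooth muscle, averaged 9.37 and 10.39 at 7 days. They averaged 9.07 and 9.92 at 14 days, and 9.16 and 10.05 in naïve skin. The other genes of that list averaged above naïve skin at both times. In the order 7 days, 14 days and naïve skin, Fn1 was at 12.98, 12.29 and 10.43, and Tnc at 10.91, 9.53 and 7.76. Postn was at 12.40, 11.75 and 11.53, and Lox at 10.31, 9.48 and 8.59. Fap was at 8.80, 8.44 and 7.29, and Sparc at 13.01, 12.78 and 11.92.

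The macrophage score was 0.41 to 1.22 at 7 days and -0.10 to 0.33 at 14 days, against -2.18 to 0.68 in naïve skin. Of its 10 genes 9 were called higher at 7 days, where 7.85% of all genes were. At 14 days 1 was, near the 8.95% of all genes. The endothelium score was -0.04 to 0.68 and -0.18 to 0.01, against -0.56 to 0.13, with 6 of 7 measured genes called higher at 7 days and 0 at 14 days. The sarcomere score was -0.70 to 0.57 and -0.84 to -0.37, against -0.83 to 1.11. Of its 10 genes 0 were called at 7 days and 6 were called lower at 14 days, where 14.6% of all genes were. The hair follicle score was -0.61 to 1.43 at 7 days and 1.51 to 1.63 at 14 days, against -3.48 to 1.78 in naïve skin. Of its 8 measured genes 0 were called higher and 1 lower at 7 days, where 7.85% and 2.66% of all genes were. At 14 days 7 were called higher, where 8.95% of all genes were. The adipocyte, Schwann cell and epidermal keratinocyte lists had 0 genes called against naïve skin at either time. Their median log2 differences were -0.08, -0.11 and -0.29 at 7 days and -0.02, -0.03 and -0.04 at 14 days. The part of any of these cell types in the differences of Sfrp2, Sfrp4 and Cthrc1 was not tested.

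Calls among other genes of the Wnt pathway went both ways. Over 6 lists, 94 genes were measured. At 7 days 13 passed as higher and 1 as lower, with 80 not passing. At 14 days 9 passed as higher and 6 as lower, with 79 not passing. The shares of all genes given above, 7.85% and 2.66% at 7 days and 8.95% and 14.6% at 14 days, are the background of these counts. In both directions together 14.9% of the 94 genes were called at 7 days, beside 10.5% of all genes. At 14 days it was 16%, beside 23.5%, so nothing about the pathway is read from these counts. The median log2 difference of the 94 genes was 0.01 at 7 days and 0.12 at 14 days, beside -0.02 and 0.02 over all genes. These counts rest on few arrays. At 7 days the 13 fell to 3 without naïve replicates 4 and 5 together, to 4, 5, 5 and 7 without 7-day replicate 4, 7-day replicate 3, naïve replicate 4 and naïve replicate 5, and stood at 38 without naïve replicates 1 and 2 together. At 14 days the 9 fell to 0 without naïve replicates 4 and 5 together, to 4 without naïve replicate 3, and to 1 or 2 without any 1 of naïve replicates 4 to 6 or of the 14-day arrays, and stood at 23, 29 and 41 without naïve replicate 1, replicate 2 and both. The 6 lower at 14 days became 2 or 3 without any 1 of naïve replicates 4 to 6 or of 14-day replicates 1, 2, 4 and 5, and 11 without naïve replicate 2.

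Among Wnt ligands, Wnt2 rose at both times, the only one of 15 ligands, secretion factors included, to be called in either comparison with naïve skin. It read 6.78, 7.48, 7.25, 7.43 and 6.24 at 7 days and 6.91, 6.87, 6.12, 6.47 and 6.46 at 14 days, against 5.41 to 6.06 in naïve skin, with no overlap at either time. The log2 difference was 1.40 (standard error 0.211, limma adjusted p = 0.00245) at 7 days and 0.93 (limma adjusted p = 0.00942) at 14 days, past the threshold with each of the 16 arrays left out in turn. With naïve replicates 4 and 5 both left out, limma gave an adjusted p of 0.0177 for 7 days and 0.0549 for 14 days. Its probesets differed in size, with 2.16 and 1.46 on 1394361_a_at and 0.65 and 0.41 on 1386807_at at 7 and 14 days. Wnt5a, a ligand that acts through Ror2, had differences of 0.59 (limma adjusted p = 0.402) and 1.28 (limma adjusted p = 0.0532). It read 6.66 and 6.69 in naïve replicates 1 and 2, and 3.77 to 5.10 on the other naïve arrays. Leaving out replicates 1 and 2 gave Wnt5a 1.30 (limma adjusted p = 0.00377) and 1.99 (limma adjusted p = 9.5e-05), while leaving out replicates 4 and 5 gave 0.03 and 0.72, with no call.

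Of 8 other secreted modulators measured, Igfbp4, an insulin-like growth factor binding protein that also binds frizzled and Lrp6, rose by 0.86 at 7 days (limma adjusted p = 0.00335) and by 0.47 at 14 days (limma adjusted p = 0.0296). The 7-day call held with any 1 array left out, and the 14-day call was lost without any 1 of naïve replicates 4 to 6 or of the 14-day arrays. Sfrp5, the remaining frizzled-related protein, was the 1 pathway gene called lower at 7 days, at -0.54 (limma adjusted p = 0.0279). It read 4.38 to 4.83 at 7 days against 4.69 to 5.49 in naïve skin. The call was lost when naïve replicate 4 or 6, or 7-day replicate 1, 3, 4 or 5, was left out. Without naïve replicates 4 and 5 together it was at -0.51 (limma adjusted p = 0.0987). Sfrp5 was dim, with its mean at percentile 13.1 of all genes, so its size is uncertain.

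Among 18 receptors and co-receptors, Fzd2 rose by 0.51 at 7 days (limma adjusted p = 0.0215) and differed by -0.07 at 14 days (limma adjusted p = 0.707). For 14 against 7 days it fell by 0.57 (limma adjusted p = 0.0115), a call that held with each array left out. Tpbg, a membrane glycoprotein that dampens beta-catenin signaling in zebrafish, was at 0.63 (limma adjusted p = 0.0264) and 0.04 (limma adjusted p = 0.869). At 14 days Lgr6, an R-spondin receptor, fell by 0.81 (limma adjusted p = 0.0311) and Znrf3, a ligase that removes frizzled receptors from the membrane, differed by -0.29 (limma adjusted p = 0.0273). Znrf3 was dim, reading 3.98 to 4.36 at 14 days against 4.24 to 4.60 in naïve skin, near the lowest 5% of values on an array, so its size is uncertain. Lgr6 read 6.64 to 7.28 at 14 days, against 7.15 to 7.23 in naïve replicates 1 to 3 and 8.20 to 8.37 in naïve replicates 4 to 6. The 14-day calls of Lgr6 and Znrf3 and the 7-day calls of Fzd2 and Tpbg were each lost without some single array, and without naïve replicates 4 and 5 Lgr6 was at -0.50 (limma adjusted p = 0.157).

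In the beta-catenin relay of 24 measured genes, Tle1, a co-repressor of Tcf factors, fell by 1.12 at 14 days (limma adjusted p = 0.00788), and Dvl1, the scaffold below frizzled, fell by 0.37 (limma adjusted p = 0.0104). Both calls held with each array left out and without naïve replicates 4 and 5, where they were the only pathway genes called at 14 days. The Dvl1 value came from 1 of its 3 probesets, 1397351_s_at, and the others were at -0.15 (limma adjusted p = 0.229) and 0.04 (limma adjusted p = 0.703). Tcf7 rose by 0.96 at 14 days (limma adjusted p = 0.0297), reading 7.65 to 8.07 there, while naïve replicates 1 and 2 read 7.82 and 7.69 and the other naïve arrays 6.39 to 6.53, a split like that of Sfrp1. Pygo2 rose by 0.26 at 7 days (limma adjusted p = 0.033). Ctnnb1, which encodes beta-catenin, was at 0.14 and 0.22 and was called at neither time. Leaving out naïve replicates 1 and 2 gave 0.38 (limma adjusted p = 0.00118) and 0.46 (limma adjusted p = 0.000154), and leaving out replicates 4 and 5 gave 0.01 and 0.08, with no call.

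Of 15 measured genes known as beta-catenin targets, 4 were called higher at 7 days, where 7.85% of all genes were. Cd44, a hyaluronan receptor, was at 0.93 (limma adjusted p = 0.00544), and the matricellular genes Ccn4 and Ccn5 were at 0.74 (limma adjusted p = 0.0209) and 1.67 (limma adjusted p = 0.0282). Msx1, a homeobox factor, was at 0.57 (limma adjusted p = 0.0158). Only Cd44 of these was called with each array left out and without naïve replicates 4 and 5, and it read 9.80 to 10.43 at 7 days against 8.81 to 9.72 in naïve skin. Axin2, the target most used as a readout of beta-catenin signaling, was at -0.44 (limma adjusted p = 0.0582) at 7 days and -0.01 at 14 days. At 14 days 3 target genes were called higher, where 8.95% of all genes were. These genes, Bambi, Msx2 and Fosl1, fell outside the naming rule and are named after their values were seen. Bambi, a membrane pseudoreceptor of the TGF-beta family, was at 2.82 (limma adjusted p = 0.0337), a larger 14-day difference than that of any of the 8 genes, and Msx2, which is also on the hair follicle list, was at 2.03 (limma adjusted p = 0.0434). Both split the naïve arrays as Sfrp1 did. Bambi read 9.78 to 10.23 at 14 days, while naïve replicates 1 and 2 read 10.14 and 10.21 and the other naïve arrays 5.0 to 6.14. Fosl1 was at 0.43 (limma adjusted p = 0.0259). With naïve replicates 4 and 5 both left out, Bambi was at 1.99 (limma adjusted p = 0.169), Msx2 at 1.46 (limma adjusted p = 0.204) and Fosl1 at 0.35 (limma adjusted p = 0.123), and Ccn5 at 7 days was at 1.07 (limma adjusted p = 0.0812).

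Of 14 planar polarity genes, the small GTPases Rhoa and Rac1 were called higher at 7 days, at 0.63 (limma adjusted p = 0.0386) and 0.25 (limma adjusted p = 0.0489), and the kinase Mapk9 lower at 14 days, at -0.51 (limma adjusted p = 0.0436). Over all genes 7.85% were called higher at 7 days and 14.6% lower at 14 days. The calls of Rhoa, Rac1 and Mapk9 were all lost without any 1 of several arrays, naïve replicates 4, 5 and 6 among them. Without naïve replicates 4 and 5 together Rhoa was at 0.39 (limma adjusted p = 0.183), Rac1 at 0.18 (limma adjusted p = 0.214) and Mapk9 at -0.29 (limma adjusted p = 0.215). Neither Rac1 probeset passed alone at 7 days, at 0.35 (limma adjusted p = 0.068) and 0.16 (limma adjusted p = 0.104). Rhoa 1399027_at did not pass either, at 0.55 (limma adjusted p = 0.0687). Mapk9 1368646_at did not pass at 14 days, at -0.36 (limma adjusted p = 0.0953).

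**Figure D4:**
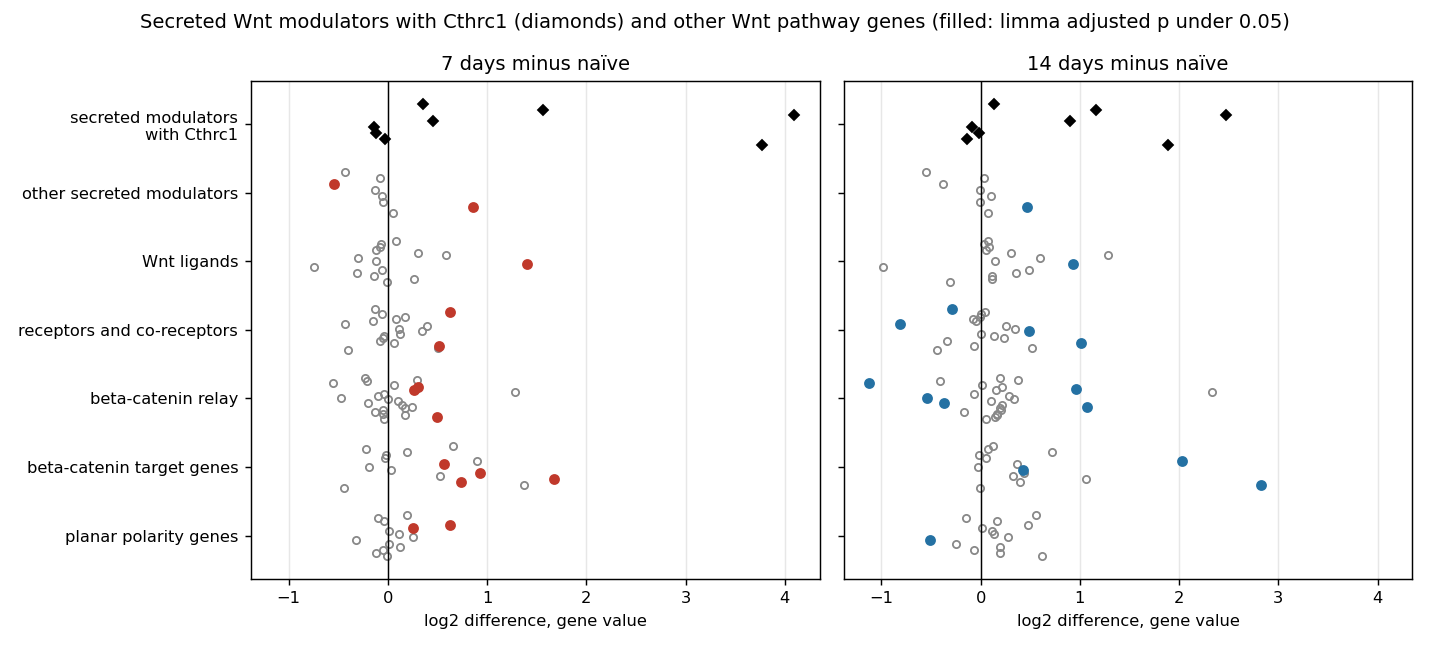
Log2 difference of gene values from naïve skin (horizontal axis) at 7 days (left) and 14 days (right) for the 8 genes (diamonds) and for the measured genes of 6 Wnt pathway lists (circles), filled where the limma adjusted p was under 0.05. Sfrp2 and Cthrc1 lie furthest right at 7 days, at 4.09 and 3.77, with the filled circles of Ccn5 and Wnt2 at 1.67 and 1.40. At 14 days the filled circle of Bambi, at 2.82, lies beyond Sfrp2 at 2.47, and that of Msx2, at 2.03, beyond Cthrc1 at 1.89.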

How the data were processed

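Arrays of 16 rats were read from 1 table of log2 values that the authors deposited after RMA (background correction, quantile normalization and summary of probes) in R 3.0.1, with no detection calls used here. Probesets were named from GEO's platform annotation. Of 31099 probesets, 57 controls, 9780 with no gene and 436 with several were left out, leaving 20826 for 14217 genes.

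Gene values were the median of a gene's probesets, as in the authors' methods. A model with a mean per group over all 16 arrays was fitted with limma 3.58.1 (R 4.3.3), eBayes and Benjamini-Hochberg adjustment over all genes, threshold 0.05. Single probesets were fitted likewise. Simulated data were used to check the fit. The genes, lists and alternatives were chosen with earlier results of these data known. Named were all probesets of the 8 genes, up to 4 genes per pathway list with the lowest p among those called against naïve skin, and the 3 genes of highest correlation with each. Genes named outside this rule are Wnt5a, Ctnnb1, Axin2, Bambi, Msx2 and Fosl1. The markers Col1a1 and Acta1 and those of the activated fibroblast list are also given outside it. As alternatives, the fit was repeated with the brightest probeset per gene, without dim genes, with other scalings, with array weights, with only the compared groups, with a replicate block and with arrays left out. The number of arrays limits the precision. Promoters came from RefSeq (GRCr8). Muscle and intestinal data of the study were not analysed here.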

Additional observations from a re-analysis of the deposited data

Results flagged for a closer look

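Of 48 groups of values checked for 1 array far from the rest, 2 had one, where chance gives about 1 in 20. Frzb 1375961_at read 5.88 in naïve replicate 6, against 4.88 to 5.19 in the other naïve arrays. Dkk3 1377468_at, a dim probeset, read 3.66 in naïve replicate 1, against 3.79 to 3.86 in the others. Leaving out either array changed no count of calls among the 8 genes against naïve skin.

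Fzd2, which encodes a frizzled receptor, was above naïve skin at 7 days, at 0.51, and was not called at 14 days, at -0.07 (limma adjusted p = 0.707), and the difference of 14 minus 7 days was -0.57 (limma adjusted p = 0.0115). It read 8.25, 8.20, 8.03, 8.34 and 7.81 at 14 days and 8.42, 8.47, 8.81, 9.15 and 8.65 at 7 days, with no overlap.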

How the results depend on the processing

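All counts below are of calls by limma (adjusted p under 0.05), higher and then lower. At 7 days against naïve skin the main counts were 3 and 0 of the 8 genes, 13 and 1 of 94 pathway genes, and 1116 and 378 of all genes. The probeset with the highest mean per gene gave 3 and 0, 10 and 2, and 1158 and 328. Leaving out dim genes gave 3 and 0, 14 and 0, and 1093 and 315. Subtracting each array's median, which shifted the median of all genes by 0.0739, gave 3 and 1, 9 and 5, and 951 and 1492, and quantile normalizing again gave 3 and 0, 10 and 2, and 971 and 642. Array weights gave 4 and 1, 24 and 8, and 2131 and 1711, and a fit of only the compared groups 3 and 0, 3 and 0, and 264 and 31. Without naïve replicates 1 and 2 together they were 4 and 1, 38 and 9, and 2706 and 2334, and without naïve replicates 4 and 5 together 3 and 0, 3 and 0, and 345 and 46.

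At 14 days against naïve skin the main counts were 4 and 0, 9 and 6, and 1272 and 2071. The highest-mean probeset gave 4 and 1 (Dkk3), 10 and 7, and 1262 and 2373, dim genes left out 4 and 0, 11 and 5, and 1013 and 1971, median scaling 4 and 0, 9 and 6, and 1021 and 2132, and quantile normalization 4 and 0, 14 and 7, and 1514 and 1927. Array weights gave 4 and 1, 44 and 15, and 3572 and 3411, and only the compared groups 4 and 0, 8 and 4, and 968 and 1663. Without naïve replicates 1 and 2 together they were 4 and 0, 41 and 11, and 3006 and 3101, and without naïve replicates 4 and 5 together 2 and 0, 0 and 2, and 251 and 708.

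For 14 against 7 days the main counts were 0 and 2, 7 and 2, and 1260 and 1430. The highest-mean probeset gave 0 and 2, 9 and 5, and 1216 and 1808, dim genes left out 0 and 2, 4 and 2, and 566 and 1209, median scaling 1 and 2, 19 and 2, and 2079 and 1005, and quantile normalization 0 and 1, 7 and 1, and 918 and 720. Array weights gave 0 and 2, 21 and 7, and 2265 and 2589, and only the compared groups 1 and 2, 19 and 7, and 1882 and 2523. Without naïve replicates 1 and 2 together they were 1 and 2, 23 and 6, and 1965 and 2302, and without naïve replicates 4 and 5 together 0 and 2, 10 and 5, and 1504 and 1840.

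With each array left out in turn the counts of the 8 genes ranged over 3 to 3 higher and 0 to 0 lower at 7 days, 4 to 4 and 0 to 0 at 14 days, and 0 to 0 and 0 to 2 for 14 against 7 days. Those of the pathway genes ranged over 4 to 14 and 0 to 4, 1 to 29 and 2 to 11, and 1 to 13 and 1 to 7, and those of all genes over 529 to 1508 and 100 to 1192, 446 to 2150 and 1209 to 2690, and 602 to 1451 and 741 to 1670, in the same order of comparisons.

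Correlations of the deviations of arrays with the same replicate number lay between -0.552 and 0.583 and were over 0.1 in 8 of 15 pairs, not in all, so the numbers were not taken to pair animals. The replicate number as a block, in which naïve replicate 6 has no partner, gave 3 and 0, 5 and 0, and 746 and 117 at 7 days, 2 and 0, 1 and 3, and 367 and 899 at 14 days, and 0 and 1, 5 and 3, and 1104 and 1210 for 14 against 7 days.

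Log2 differences of the 8 genes and their probesets kept their direction wherever they were called. With its highest-mean probeset Sfrp4 was at 3.08, 2.12 and -0.96, and Dkk3 at -0.06, -0.60 and -0.53. Near 0, the direction of Fzd2 at 14 days turned to 0.01 without 14-day replicate 5, and that of Tpbg to -0.12, -0.05 and -0.08 without naïve replicates 4 and 5, naïve replicate 4 or 14-day replicate 1, with 0.13 the highest value with 1 array left out. Rac1 at 14 days turned to -0.14 with the highest-mean probeset, -0.01 with median scaling, and -0.06, -0.04, -0.00 and -0.01 without naïve replicates 4 and 5, naïve replicate 5, 14-day replicate 1 or 14-day replicate 4, with 0.04 the highest value with 1 array left out. With quantile normalization Pygo2 and Rhoa were at 0.00 for 14 against 7 days. The cause was not tested. Dim probesets limit what can be seen of Frzb, Wif1 and Dkk2.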
